A study of Mus musculus with 2 samples.

Results

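Stromal precursors of epididymal WAT with little or no signal of Dpp4, Pi16 and Sema3c were described from single nuclei of obese mice. They were chosen by their own counts of unique molecular identifiers (UMIs), and they made up 993 of the 16477 nuclei that passed the quality limits, 545 of 8618 for HF-PBS, next to 448 of 7859 for HF-HHT. A nucleus was a member where the sum of 11 stromal genes (Pdgfra, Dcn, Lum, Ebf2, Abca8a, Bicc1, Gsn, Cacna2d3, Fgf10, Dpp4 and Pi16) reached 0.35% of its UMIs and at least 5 UMIs, where mesothelial and epithelial genes stayed low, and where Dpp4, Pi16 and Sema3c together stayed below 2 UMIs or below 0.03%. The nuclei over that last limit, 175 in HF-PBS against 222 in HF-HHT, are called Dpp4 Pi16 progenitors here and are the closest cells to compare with. There was 1 library per condition, made from the pooled tissue of 3 male C57BL/6 N mice. The mice were 8 weeks old at the start. They were fed a high-fat diet (HF), first for 6 weeks alone and then for 8 more weeks with 3 intraperitoneal injections per week, which held PBS in HF-PBS mice and homoharringtonine (HHT) in HF-HHT mice. HHT, a plant alkaloid given to leukemia patients, blocks translation. All animals were therefore on HF, no lean group was analysed here, and pooling leaves no measure of the spread between mice. No difference between the conditions could be tested, and every interval below covers counting error only.

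White fat grows by enlarging its adipocytes and by forming new ones from stromal precursors that carry the receptor Pdgfra. In the mouse, precursors marked by Dpp4 and Pi16 lie in the connective tissue around the depot and are less committed, while precursors without these markers are generally placed closer to adipocyte formation. Precursors also build the extracellular matrix of the depot, and in obesity they are a main source of the fibrillar collagens of fat tissue.

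The members held fewer UMIs in HF-HHT, with a median of 3754 per nucleus against 6193 in HF-PBS, and their counts summed to 2263605 UMIs against 3949180. All levels are therefore given as CPM, that is, the UMIs of a gene per 1000000 UMIs summed over the nuclei of a class. The libraries shared 20 barcodes among all quality nuclei and 0 among the members. Mitochondrial UMIs had a median of 0.0163% in HF-HHT and 0.00988% in HF-PBS members. Free RNA, estimated from barcodes that held no nucleus, was put at 15.5% of the member UMIs in HF-HHT and 11.7% in HF-PBS.

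Some members carried markers of other cells, and these differed between the libraries. Nuclei in which the markers of 1 other cell type passed 0.2% of UMIs and 3 UMIs numbered 61 in HF-PBS, or 11.2%, and 91 in HF-HHT, or 20.3%. In HF-PBS they were mostly marked by macrophage genes, in 36 nuclei, and in HF-HHT mostly by adipocyte genes, in 62 nuclei against 8 in HF-PBS. All 10 adipocyte markers were detected in both libraries, and their sum in the members was 175 CPM in HF-PBS against 2196 CPM in HF-HHT. The 62 nuclei held 24.96% of all member UMIs in HF-HHT. They had 15.9 CPM of Pdgfra against 394 CPM in the HF-HHT members without such markers, 77.9 against 1628 CPM of Col3a1, and 97.4 against 1864 CPM of Lama2. Their stromal sum was carried by other genes, since they had 1375 CPM of Fgf10 against 92.3 CPM, and 1901 CPM of Ebf2 against 1478 CPM. Without Fgf10 in the sum, 27 of the 62 fell below the stromal limit. These nuclei went against the label, and the list counts and the genes described below are therefore mostly given for all members and for the 484 and 357 members that carried no markers of other cells. In these, the adipocyte sum was 70.4 CPM in HF-PBS against 290 CPM in HF-HHT, against 638 and 3199 CPM in the free RNA. Erythroid genes, at 22.3 and 504 CPM in the members, also stood at 30.4 and 1776 CPM in the free RNA, and leaving out marked nuclei hardly changed them, at 22.3 and 502 CPM. The macrophage sum was 617 and 545 CPM in the members, with all 10 markers detected in each library. Of the endothelial markers Tie1 was at 0 in HF-PBS, and of the perivascular ones Higd1b was at 0 in HF-PBS and Kcnj8 and Trpc6 in HF-HHT. Of the lymphoid markers Pax5, Ms4a1 and Cd79b were at 0 in HF-HHT. The part of free RNA and of other cells in the results below was not tested, apart from the values given with the marked nuclei left out.

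**Figure D1:**
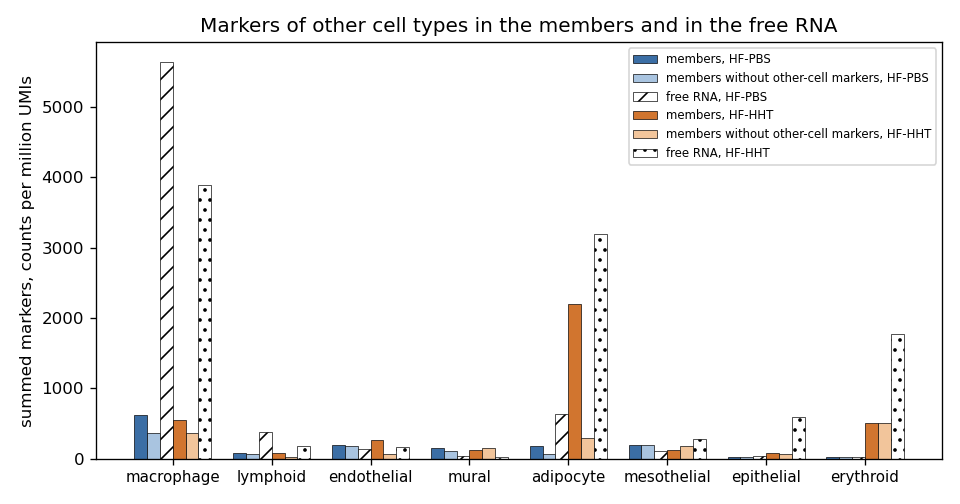
Summed CPM of the marker genes of 8 other cell types (vertical axis, linear, from 0) in all members, in members without markers of other cells, and in the free RNA (white bars, hatched for HF-PBS and dotted for HF-HHT). Member bars are blue for HF-PBS and orange for HF-HHT, pale where marked nuclei were left out. The adipocyte sum of the HF-HHT members, 2196 CPM, is the highest sum among the members and drops to 290 CPM once the marked nuclei are left out.

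The members were 6.32% of all quality nuclei in HF-PBS (exact binomial 95% interval 5.82 to 6.86) and 5.70% in HF-HHT (5.198 to 6.24), a log2 ratio of -0.15 with an interval of -0.33 to 0.03. Among the gated stromal nuclei they were 75.7% in HF-PBS (72.4 to 78.8) and 66.9% in HF-HHT (63.2 to 70.4), so the split with the Dpp4 Pi16 progenitors leaned further to the progenitors in HF-HHT. The limit on Dpp4, Pi16 and Sema3c depends on depth. The share was lower in HF-HHT in each of the 5 ranges of depth looked at, but the intervals of the libraries overlapped in each. The 2 shallowest ranges held only 21 and 27 gated HF-PBS nuclei. Free RNA held 46.4 and 96.7 CPM of Dpp4. The parts of depth and of free RNA in the split were not tested. From 2000 to 4000 UMIs the members were 71.0% (62.7 to 78.4) and 67.0% (60.4 to 73.0) of gated nuclei. From 4000 to 8000 UMIs they were 73.6% (68.2 to 78.6) and 62.0% (55.2 to 68.4), and from 8000 UMIs 78.1% (72.4 to 83.1) and 68.0% (57.8 to 77.1). When the marked nuclei were left out, the share of all quality nuclei was 5.62% (5.14 to 6.12) for HF-PBS against 4.54% (4.09 to 5.03) in HF-HHT, a log2 ratio of -0.31 (-0.51 to -0.11). When barcodes over the epithelial limit were taken out of the denominator, the log2 ratio was 0.037 (-0.15 to 0.22), so the order of the shares depended on what was counted as a nucleus. In shares of nuclei, fewer precursors and more of other cells cannot be told apart.

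The limits cut through a continuum. A stromal sum from 0.35% to 0.45% was found in 133 HF-PBS and 87 HF-HHT members, and 245 nuclei in each library lay just below, from 0.25% to 0.35%. Of the members, 406 and 326 had no UMI of Dpp4, Pi16 or Sema3c, 108 in each library had 1, and 31 and 14 had 2 or more but under 0.03%. On the other side, 18 and 33 of the progenitors had exactly 2.

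The label names Pdgfra, Lama2, C7, Fgf10, Col8a1 and Gpc3. Summed, they stood at 4243 CPM in the HF-PBS and 3102 CPM in the HF-HHT members, against 174 and 264 CPM in the nuclei outside the stromal gate. Pdgfra and Fgf10 are part of the stromal rule, which fixes part of this difference. Of the others, Lama2 had 58.2 and 30.5 CPM outside the gate, Col8a1 73.1 and 27.2 CPM, C7 6.78 and 21.3 CPM and Gpc3 5.26 and 24.2 CPM, all below the member levels that follow. The genes lie on different chromosomes of the GRCm38 genome: Pdgfra at chr5:75152292-75198215, Lama2 at chr10:26980036-27619758, C7 at chr15:4988762-5063740, Fgf10 at chr13:118669791-118792115, Col8a1 at chr16:57624258-57754737 and Gpc3 at chrX:52272426-52613950, each value being the span of a protein-coding gene.

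Within the members these genes moved apart between the libraries. Col8a1, a short-chain collagen made by vascular and stromal cells, had 5677 UMIs in HF-PBS against 679 in HF-HHT, that is 1438 and 300.0 CPM (log2 ratio -2.26, interval -2.38 to -2.15). Without the marked nuclei the ratio was -2.08, and in the progenitors it was -0.90. In nuclei thinned to 2000 UMIs, a UMI of Col8a1 was found in 48.8% of 502 HF-PBS members (44.4 to 53.3) and in 14.9% of 355 HF-HHT members (11.4 to 19.1), against 2.25% and 1% of macrophage nuclei of the same depth. Before thinning the shares were 54.7% and 18.3%, and 43 and 93 members were too shallow to enter the thinned count. Col8a1 was thus lower in level and present in fewer nuclei.

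Gpc3, a glypican of the cell surface that binds growth factors and Hedgehog ligands, had 27.9 CPM in HF-PBS against 216 CPM in HF-HHT (log2 ratio 2.96, 2.66 to 3.27; 3.32 without marked nuclei; 2.42 in the progenitors). The thinned share of members with a UMI of Gpc3 was 4.98% in HF-PBS against 21.4% in HF-HHT, against 0.5% and 0.75% of macrophage nuclei. C7, the complement factor that joins the membrane attack complex, had 239.5 and 558 CPM (1.22, 1.10 to 1.34; 1.60 without marked nuclei). For C7 the progenitors went the other way, with 860 CPM in HF-PBS against 704 CPM in HF-HHT, a log2 ratio of -0.29, and the difference between the classes was not tested.

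Fgf10, a growth factor that promotes the formation of fat cells, had 92.9 CPM in HF-PBS against 405 CPM in HF-HHT, a log2 ratio of 2.12 (1.95 to 2.30). Without the marked nuclei the levels were 96.4 and 92.3 CPM, a log2 ratio of -0.06. In the progenitors Fgf10 had 33.0 and 149 CPM, a log2 ratio of 2.18. The higher Fgf10 of the HF-HHT members thus sat in the nuclei with adipocyte markers. Fgf10 is a rule gene, and 27 of these 62 nuclei passed the stromal limit only with it. Its member level and its place in these nuclei were therefore in part set by the rule. Pdgfra, the receptor that defines these cells, had 423 and 299 CPM (-0.50; -0.18 without marked nuclei). In the progenitors it had 241 and 367 CPM, a log2 ratio of 0.61. Lama2, a laminin alpha chain of the basement membrane, had 2022 and 1323 CPM (-0.61; -0.20). The lower member levels of both genes in HF-HHT were thus closer to HF-PBS once the marked nuclei were gone.

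**Figure D2:**
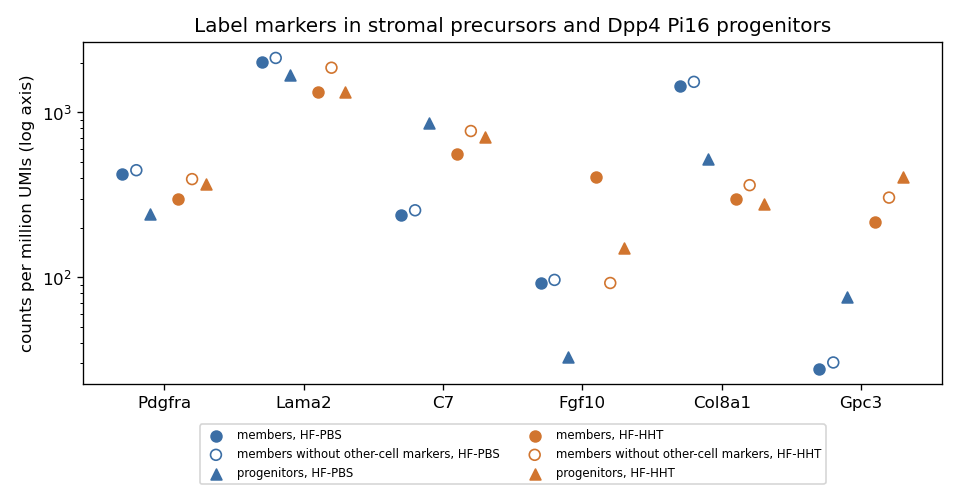
CPM (log axis) of the 6 label genes in members (filled circles), in members without markers of other cells (open circles) and in Dpp4 Pi16 progenitors (triangles), for HF-PBS (blue) and HF-HHT (orange). Col8a1 is lower and Gpc3 and C7 are higher in the HF-HHT members, and the Fgf10 of HF-HHT drops from 405 to 92.3 CPM when marked nuclei are left out.

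The comparison of HF-HHT with HF-PBS asks what HHT treatment went with in precursors of obese fat. A gene was measured where both libraries together had at least 20 UMIs, and it was called higher or lower where its CPM differed by at least 1.5-fold. Of 11935 measured genes, 2806 (23.5%) were higher and 1246 (10.4%) lower in the HF-HHT members, with a median log2 ratio of 0.15 over the measured genes. Without the marked nuclei 2388 of 11079 (21.6%) were higher and 1086 (9.8%) lower. The calls that also had their counting interval on the same side of 0 were 2133 (17.9%) and 916 (7.67%), and without the marked nuclei 1680 (15.2%) and 695 (6.27%). The balance of the calls depended on the scaling: 69.2% of them were higher with CPM, 52.6% with TMM factors, 49.3% with median-of-ratios factors and 56.7% with the median gene set to 0. These scalings lower every log2 ratio by 0.19, 0.22 and 0.15. Group counts below are to be read against these shares and against the median of 0.15. In the pairs of values that follow, HF-PBS comes first. The log2 ratio of all members stands first in the parentheses, with its interval where given, and the ratio without the marked nuclei comes last.

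The fibrillar collagens, the chains of the rope-like fibres of scar and connective tissue, were lower in the HF-HHT members. All 8 measured chains were at least 1.5-fold lower, with a median log2 ratio of -1.19, and their sum was 8390.1 CPM in HF-PBS against 3503 CPM in HF-HHT. Without the marked nuclei 6 of 8 were lower by this fold and none higher, with a median of -0.83 and sums of 8862 and 4740.1 CPM. Col1a1 and Col1a2, the chains of type I collagen, had 770.0 and 320 CPM (log2 ratio -1.27; -0.88 without marked nuclei) and 1237 and 557 CPM (-1.15; -0.76). Col3a1, the chain of type III collagen, had 2697 and 1154 CPM (-1.22; -0.81). Col5a2, a chain of type V collagen, had 2529.6 and 842 CPM (-1.59, -1.66 to -1.52; -1.21). The chain with the widest ratio was Col24a1, at chr3:145292472-145552011, with 409 UMIs in HF-PBS against 11 in HF-HHT, or 104 and 4.86 CPM (-4.41, -5.43 to -3.56; -3.94). These UMIs were found in 52 HF-PBS members and 3 HF-HHT members. The chains closest to no difference without marked nuclei were Col5a1 at -0.41 and Col27a1 at -0.37.

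In single nuclei the lower collagen level was spread over the whole range. The fibrillar chains took a median of 0.687% of the UMIs of a member without other-cell markers in HF-PBS against 0.299% in HF-HHT. The 10th percentiles were 0.287% and 0.121%, and the 90th percentiles 1.47% and 0.779%. In the Dpp4 Pi16 progenitors the medians were 0.373% and 0.239%. There 3 of 8 chains were lower and 1, Col27a1, was higher, with a median log2 ratio of -0.32, and Col1a1 and Col1a2 stood at -0.19 and 0.05. Of the measured genes of the progenitors, 10.1% were called lower and 20.3% higher, and 6.93% and 12.6% with the counting interval on the same side. Whether the collagen ratio differed between members and progenitors was not tested. The fibrillar sum was also lower elsewhere in HF-HHT. It was 755 and 597 CPM outside the stromal gate, 204 and 111 CPM in macrophage nuclei, and 2571 and 1350 CPM in the free RNA. Outside the gate Col24a1, Col1a1 and Col1a2 had log2 ratios of -4.55, -1.45 and -1.23. Col5a1, Col5a3 and Col27a1 went the other way there, at 0.40, 1.11 and 1.01.

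**Figure D3:**
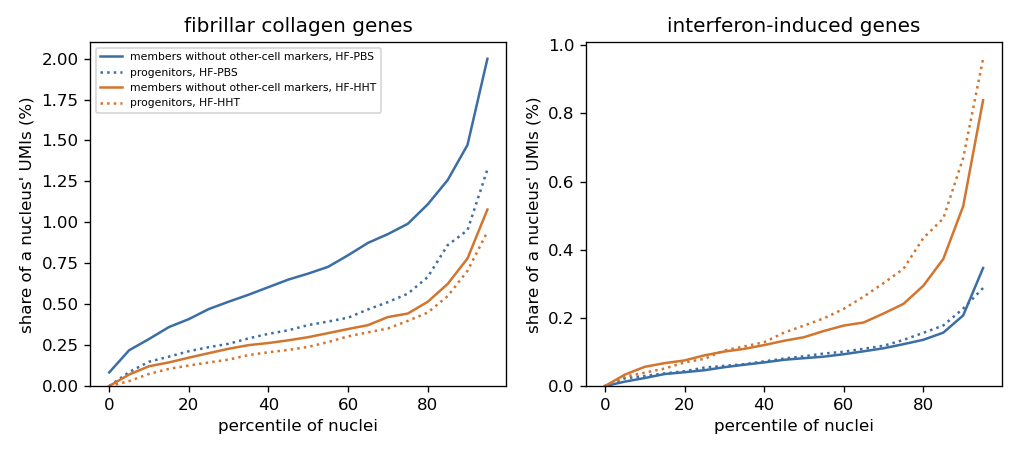
Share of a nucleus' UMIs (%, vertical axes) taken by fibrillar collagen genes (left) and interferon-induced genes (right), against the percentile of nuclei up to the 95th (horizontal axes), for members without markers of other cells (solid lines) and progenitors (dotted lines) in HF-PBS (blue) and HF-HHT (orange). For the collagens the HF-HHT member line lies below the HF-PBS one, with medians of 0.299% and 0.687%, and for the interferon genes above it, with medians of 0.143% and 0.0818%.

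Other collagens were split. Of 13 measured microfibrillar, network and short-chain collagens, 7 were lower and 3 higher, and the median was -0.64 (5 and 3, -0.45 without marked nuclei). The type VI chains Col6a2 and Col6a3, which link cells to the fibres, had log2 ratios of -0.97 and -0.91 (-0.65 and -0.45 without marked nuclei). Col6a6, another type VI chain, had 35.2 CPM in HF-PBS against 113 CPM in HF-HHT (1.68; 2.23), and Col14a1, a collagen on the fibre surface, 212 and 357 CPM (0.75; 1.21). Of the basement membrane list, 6 of 19 were higher and 6 lower (6 and 5 of 17 without marked nuclei). Its major collagen chains Col4a1 and Col4a2 had 1841 and 762 CPM (-1.27; -1.08) and 1355 and 549.6 CPM (-1.30; -1.22), while the rarer Col4a3 and Col4a4 had 18 and 86 UMIs (3.06; 3.54) and 24 and 73 UMIs (2.41; 2.83). Members of 1 collagen family thus stood on both sides.

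Enzymes that process collagen were lower in part. The list had 21 measured genes, 10 of them lower and 1 higher, its median was -0.45, and without marked nuclei 6 were lower and 0 higher. Lox, the enzyme that crosslinks collagen, had 139 and 54.3 CPM (-1.36, -1.65 to -1.07; -1.04), and Plod2, which hydroxylates its lysines, 419 and 186 CPM (-1.17; -0.88). The chaperone Serpinh1 had 124 and 112 CPM (-0.15; 0.16), and the prolyl hydroxylase subunit P4ha1 174 and 173 CPM (-0.01; 0.19). These did not reach the fold.

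Genes linked to contractile and scar-forming fibroblasts were lower in 9 of 18 and higher in 3, and the median was -0.57 (7 lower and 2 higher of 15 without marked nuclei). Ccn2, a matricellular growth factor, had 222 and 42.9 CPM (-2.37, -2.69 to -2.07; -2.12). Postn, a matrix protein of remodelling tissue, had 852 and 247 CPM (-1.79; -1.44), and Cthrc1, a secreted protein of activated fibroblasts, had 56 and 4 UMIs (-3.00; -2.49). Acta2, the smooth muscle actin by which myofibroblasts are usually known, had 21 and 13 UMIs, or 5.32 and 5.74 CPM (0.11, -1.01 to 1.18), and 13 and 3 of these UMIs were outside the marked nuclei. Fbn2 and Ltbp2, which belong to the microfibrils, had log2 ratios of -2.42 and -2.48 (-2.08 and -2.39), while Podn, a small proteoglycan, had 25.6 and 95.4 CPM (1.90; 2.08).

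**Figure D4:**
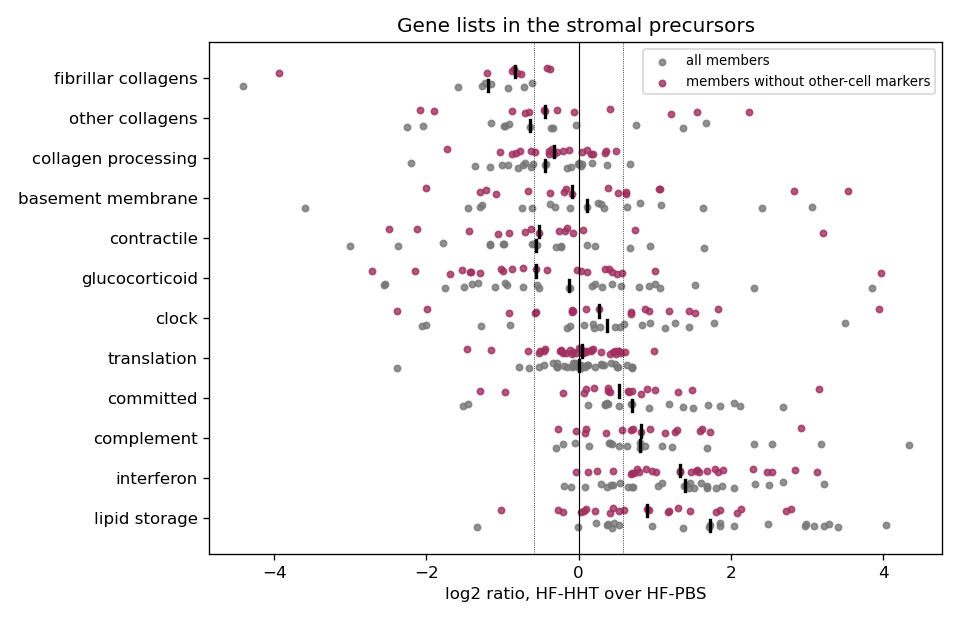
Log2 ratio of HF-HHT over HF-PBS (horizontal axis) for each measured gene of 12 lists in all members (grey) and in members without markers of other cells (purple). Black bars are list medians and dotted lines mark 1.5-fold. The fibrillar collagens lie to the left with a median of -1.19 and the interferon genes to the right with a median of 1.40, and the lipid list moves from 1.73 to 0.90 when marked nuclei are left out.

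Interferon-induced genes, which cells switch on in response to interferons, were higher as a group. Of 28 measured genes of this list, 20 were higher and 0 lower, with a median log2 ratio of 1.40, and without the marked nuclei 23 of 27 were higher with a median of 1.34. Among the effectors, Iigp1, an immunity-related GTPase, had 264 UMIs in HF-PBS against 973 in HF-HHT, or 66.8 and 430 CPM (2.68, 2.49 to 2.89; 2.84). Igtp, a GTPase of the same family, had 8 and 43 UMIs (3.23, 2.12 to 4.53; 3.13), and Gbp2, a guanylate-binding protein, 35 and 114 UMIs (2.51; 2.54). Irf1, a factor that drives these genes, had 21.5 and 69.4 CPM (1.69; 1.90). The chemokines Cxcl9 and Cxcl10, which draw T cells and are known interferon targets, had 27 and 78 UMIs (2.33; 2.57) and 13 and 65 UMIs (3.12; 3.52). Their member levels were 6.84 and 34.5 CPM and 3.29 and 28.7 CPM. In the free RNA they stood higher, at 9.57 and 96.4 CPM and at 4.67 and 124 CPM. The part of free RNA in these 2 ratios was not tested. The MHC class I genes moved less, with B2m at 211 and 259 CPM (0.30; 0.24) and H2-K1 at 258 and 274 CPM (0.08; 0.12).

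This group was also higher elsewhere in the HF-HHT library. In the progenitors 22 of 26 were higher with a median of 1.61, and in the nuclei outside the stromal gate 23 of 31 with a median of 1.19, where 39.3% of all genes were called higher. The summed list was 2632 CPM in the free RNA of HF-PBS and 6014 CPM in that of HF-HHT, and 1152 and 4614 CPM in macrophage nuclei. With the free RNA subtracted the list median in the members was 0.99, and with the marked nuclei left out as well, an alternative chosen after seeing the data, it was 1.32.

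The start regions of 24 genes of this list were matched in a table of RefSeq promoters on GRCm38.p6, each of 300 bases from 250 before to 50 after the start of transcription. The motif searched, on both strands, was GAAA, any 2 bases and GAAA again, the core of the element that factors of the Irf family are known to bind. It was found in 14 of the 24 (58.3%) and, counted by gene as well, in 3.99% of the 27025 genes of the table, or 3.45% of its 32544 promoters. The promoters of 3 genes whose levels were given or that share their family are shown because they carry the motif and the genes were higher together. All lie on the plus strand, capitals mark the matches, and TTTC in capitals is the motif read on the other strand. In Gbp3, which had 20 and 57 UMIs (2.31; 2.48), 2 matches overlap.
Igtp, chr11:58199306-58199605: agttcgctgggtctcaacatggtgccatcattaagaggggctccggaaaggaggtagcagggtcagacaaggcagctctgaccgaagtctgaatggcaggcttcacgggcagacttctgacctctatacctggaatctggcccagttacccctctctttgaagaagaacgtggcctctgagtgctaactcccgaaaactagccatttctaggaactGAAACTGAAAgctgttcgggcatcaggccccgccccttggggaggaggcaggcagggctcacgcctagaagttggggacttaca
Gbp2, chr3:142620413-142620712: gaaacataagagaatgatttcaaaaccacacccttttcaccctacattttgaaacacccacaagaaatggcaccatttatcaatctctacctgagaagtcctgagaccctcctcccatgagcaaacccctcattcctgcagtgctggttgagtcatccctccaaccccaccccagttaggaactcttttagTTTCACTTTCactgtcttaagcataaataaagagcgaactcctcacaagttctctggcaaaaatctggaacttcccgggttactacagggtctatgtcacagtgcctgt
Gbp3, chr3:142559794-142560093: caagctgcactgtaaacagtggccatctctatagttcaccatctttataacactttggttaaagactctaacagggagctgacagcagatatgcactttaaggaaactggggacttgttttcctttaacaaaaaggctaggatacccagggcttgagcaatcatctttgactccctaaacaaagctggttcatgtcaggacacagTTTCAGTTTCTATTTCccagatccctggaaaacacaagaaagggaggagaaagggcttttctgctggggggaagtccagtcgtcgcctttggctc
A match describes these letters only.

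Complement genes, which precursors secrete as part of innate defence, were higher in 11 of 19 and lower in 0, with a median of 0.80 (11 of 17 and 0.82 without marked nuclei). The count of higher genes was 7 with free RNA subtracted and 6 at 100 counts, and at a stromal limit of 0.7% it was 3, with a median of 0.24. C4b had 34.2 and 110.0 CPM (1.69; 1.62), C3, the central factor, 187 and 341 CPM (0.87; 1.27), and C2 15.2 and 75.1 CPM (2.31; 1.73). For Cfd and Cd59a much of the HF-HHT signal sat in the marked nuclei. Cfd, the protease adipsin of fat cells, had 7 and 81 UMIs (4.34; 2.92), and Cd59a, a complement inhibitor, had 15 and 78 UMIs (3.18), of which 8 and 5 were outside the marked nuclei.

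Genes induced by glucocorticoids were mixed in all members, with 7 of 26 higher and 10 lower, but without the marked nuclei 2 of 23 were higher and 11 lower and the median was -0.56. Errfi1, the feedback inhibitor of the EGF receptor, at chr4:150853919-150868892, had 1051 CPM in HF-PBS against 178 CPM in HF-HHT (-2.56, -2.71 to -2.41; -2.14). Fkbp5, the chaperone partner of the glucocorticoid receptor and its best known target, had 1006 and 381 CPM (-1.40; -1.29). Ddit4, an inhibitor of mTOR, had 71 and 7 UMIs (-2.54; -2.71), and the kinase Sgk1 229 and 46 UMIs (-1.51; -1.41). The transcription factor Zbtb16 had 1791 and 916 CPM (-0.97; -1.43). Against these, the iron carrier Lcn2 had 4 and 33 UMIs (3.85; 3.97), and the receptor Nr3c1 274 and 309 CPM (0.18; 0.11). In the progenitors Errfi1, Fkbp5, Ddit4 and Sgk1 had log2 ratios of -1.95, -1.48, -3.89 and -2.88, all in the same direction.

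Clock genes differed in both directions, with 8 of 20 higher and 4 lower (9 and 3 of 19 without marked nuclei). The activator Arntl had 597 and 82 UMIs, or 151 and 36.2 CPM (-2.06, -2.41 to -1.73; -1.99), its relative Npas2 99.0 and 40.6 CPM (-1.28; -0.92), and the repressor Nfil3 17.7 and 4.42 CPM (-2.00; -2.39). On the higher side, the output factor Hlf had 20 and 130 UMIs (3.50, 2.82 to 4.26; 3.94), Tef 39.0 and 107 CPM (1.46; 1.53), Per3 15.7 and 53.9 CPM (1.78; 1.83) and Per2 23.8 and 52.1 CPM (1.13; 1.19). Clock, the partner of Arntl, had 163 and 186 CPM (0.18; 0.10). The progenitors had the same direction, with -2.05 for Arntl and 1.29 for Hlf. The sources used here do not give the hour at which tissue was taken, and its part was not tested.

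Genes of committed preadipocytes were higher in 11 of 19 and lower in 2, and without marked nuclei in 9 and 2 of 18. Ggt5, an enzyme that cleaves leukotriene C4, had 70 and 257 UMIs (2.68, 2.29 to 3.08; 3.16), and Vcam1, an adhesion molecule, 44.1 and 71.1 CPM (0.69; 1.31). Fabp4, the lipid carrier of fat cells and their precursors, had 233 and 960.4 CPM (2.04; 0.90), and Pparg, the master factor of adipocyte formation, 243 and 880 CPM (1.86; 0.38). In the free RNA Fabp4 stood at 652 and 2016 CPM and Pparg at 486 and 694 CPM. The part of free RNA in these ratios was not tested. Col15a1, a collagen known for vessel-associated precursors, had 718 and 262 CPM (-1.45; -1.30). The lipid storage list had a median of 1.73 in all members and of 0.90 without the marked nuclei, where 13 of 23 were still higher. Plin1, the coat protein of lipid droplets, had 4.51 and 29.9 CPM in these nuclei, while its free RNA stood at 49.7 and 311 CPM. Of 26 factors that promote adipocyte formation, 10 were higher in all members and 3 of 25 without the marked nuclei. Ghr, the growth hormone receptor, had 1499 and 7694 CPM (2.36; 0.59) and Prdm16, the factor of brown and beige fat, 14 and 127 UMIs (3.98), of which 5 and 3 were outside the marked nuclei. These higher levels were mostly those of the marked nuclei.

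Signalling genes held both directions. Ror1, a Wnt5a receptor kinase, had 4831 and 1585 CPM (-1.61, -1.66 to -1.56; -1.20), and Wnt5a itself 13.2 and 26.9 CPM (1.03; 1.21). Of 35 Wnt genes 13 were higher and 6 lower, and the median was 0.33 (13 and 6 of 31, 0.32 without marked nuclei). In the IGF axis, Pappa, the protease that frees IGF from its binding proteins, had 276 and 55.7 CPM (-2.31, -2.59 to -2.04; -1.85), and Socs2, a brake on growth hormone signalling, 192 and 47.3 CPM (-2.02; -1.73). Igf1 had 212 and 485 CPM (1.19; 0.65). The neurotrophin receptor Ntrk3 had 54 and 187 UMIs (2.59; 2.97), and Il34, a ligand of the macrophage receptor Csf1r, had 211 and 45.9 CPM (-2.20; -1.99). The factors Runx1 and Runx2, which restrain adipocyte formation, had 413 and 161 CPM (-1.36; -1.41) and 327 and 139.6 CPM (-1.23; -1.31). For Runx1 the progenitors stood at 0.02.

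Further matrix and adhesion lists held calls in both directions. Of 39 matrix glycoproteins, 13 were higher and 9 lower (15 and 7 of 38 without marked nuclei), the latter including the microfibril gene Fbn1 with 2238 and 872 CPM (-1.36; -0.95). Of 34 matrix proteases and their relatives, 8 were lower and 6 higher (9 and 8 of 32). Adamts6, a protease that acts on microfibrils, had 657 and 140.5 CPM (-2.23; -2.10). Of 35 integrin and adhesion genes, 11 were lower and 7 higher (8 and 5 of 34), and the beta 3 and alpha 5 integrins Itgb3 and Itga5 had 70.1 and 17.7 CPM (-1.99; -1.74) and 288 and 94.1 CPM (-1.61; -1.29). Of 39 genes of TGF beta signalling, 8 were lower and 7 higher (5 and 8 of 38). Its mediator Smad3 had 607 and 269 CPM (-1.18; -1.01). The lists of stress response, immediate early and senescence genes had 5, 4 and 14 higher and 4, 6 and 7 lower genes of 26, 22 and 43 measured. Without marked nuclei these lists had 5, 4 and 12 higher and 2, 6 and 7 lower genes of 25, 21 and 40.

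The list for translation, the process that HHT blocks, held few calls. Besides initiation and elongation factors it held host genes of small nucleolar RNAs, nucleolar and RNA polymerase I genes, and kinases. Among the 36 measured, 4 were higher and 3 lower, and the median was 0.01 against 0.15 for all genes (2 and 3, 0.04 without marked nuclei). The higher genes were Eef1a1, Eif4ebp2, Rrn3 and Rps6ka3, and the lower ones Eif4g3, Snhg1 and Rps6ka2. Ribosomal protein genes, summed, took 0.352% of the member UMIs in HF-PBS against 0.497% in HF-HHT. Their shares were 0.348% and 0.522% without marked nuclei, 0.349% and 0.723% in the progenitors, and 0.331% and 0.497% in the nuclei outside the stromal gate. The elongation factor Eef1a1 had 99.5 and 162 CPM (0.70, 0.49 to 0.91; 0.99), but with the free RNA subtracted its log2 ratio was -0.0298. The initiation factor Eif4g1 had 179 and 193 CPM (0.11; -0.12). Hspa5, the main chaperone of the endoplasmic reticulum, had 159.5 and 129.9 CPM (-0.30, -0.50 to -0.09; -0.09), so it did not reach the fold.

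Over the whole genome, the 12 lowest genes that passed the rule for names were Col24a1, Wipf3, Ncam1, Sytl5, Frem1, Shc4, Kif26b, Cdh3, Trim9, Hs6st2, Tmem200a and Cadm4, with log2 ratios from -4.41 to -2.79. All 12 stayed at least 1.5-fold lower without the marked nuclei. Wipf3, a regulator of actin assembly, had 594 and 19 UMIs (-4.16, -4.91 to -3.51; -4.59), and a UMI of it was found in 17.5% and 1.69% of thinned members. Ncam1, a neural cell adhesion molecule that some mesenchymal cells carry, had 642 and 21 UMIs (-4.13; -4.20). Frem1 is a basement membrane protein, Cdh3 is P-cadherin and Hs6st2 modifies heparan sulfate.

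The 12 highest were Cyyr1, Btnl9, Gnal, Prdm16, Inmt, Hlf, Plcxd3, Aox3, Sncaip, Gpc3, Gstt1 and Ggt5, from 4.50 to 2.68. For Cyyr1 and Btnl9 the HF-HHT UMIs came from 6 nuclei each, with 58.8% and 73.7% from 1 nucleus, and of the 127 Prdm16 UMIs 3 were outside the marked nuclei. In the members without markers of other cells the highest were led by Hlf, by Aox3, an aldehyde oxidase with 28 and 142 UMIs (3.61), and by Plcxd3, a phospholipase-domain protein with 105 and 526 UMIs (3.59). Hmcn2, a large matrix protein, had 212 and 700 UMIs there (2.99), and a UMI of it was found in 7.97% of thinned HF-PBS and 36.9% of HF-HHT members, against 0% and 0.25% of macrophage nuclei. Gstt1, a glutathione transferase, had 31 and 105 UMIs (3.03). Inmt, a methyltransferase, had 3 and 45 UMIs. Plcxd3 was not higher in the HF-HHT progenitors, at 355 and 309.7 CPM (-0.20), whereas Gpc3, Gstt1, Ggt5 and Hmcn2 were, at 2.42, 2.21, 2.37 and 2.88.

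The members were also set against the Dpp4 Pi16 progenitors of the same library. The classes were split by Dpp4, Pi16 and Sema3c, so these values are a description. Of 10233 genes measured in both libraries, 349 (3.41%) were at least 1.5-fold higher in the members in both and 396 (3.87%) lower in both. Of 18 measured genes of interstitial progenitors outside the rule, 15 were lower in both libraries and 0 higher. Cd55, a complement regulator of these progenitors, had log2 ratios of members over progenitors of -2.73 in HF-PBS against -3.10 in HF-HHT, and Creb5 of -2.60 and -1.85. Of 17 committed precursor genes, 6 were higher in both and 0 lower, among them Col15a1 at 1.56 and 1.39 and Hsd11b1, which activates glucocorticoids, at 0.74 and 0.69. These counts are for all members. Without marked nuclei, Plin2, 1 of the 6, had 118 CPM in the HF-PBS members, next to 86.9 CPM in all progenitors. Mme, another of them, had 7.04 and 19.7 CPM in the members, next to 4.83 and 17.9 CPM. Neither gene then reached 1.5-fold in HF-PBS. The listed genes did not enter the split, but interstitial progenitors are themselves known by Dpp4 and Pi16. Lower levels of their genes were thus in part set by the split and are no separate support for it.

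The genes highest over the progenitors in both libraries were Notch3, Cemip, Flt1, Lrfn2, P3h2, Tnc, Dok5, F13a1, Aspa and Ctnna3. Notch3, a Notch receptor best known in mural cells, had 120.3 CPM in the HF-PBS members and 7.24 CPM in the progenitors (4.05, 3.12 to 5.19), and 90.6 and 11.6 CPM in HF-HHT (2.96). Of its 475 and 205 member UMIs, 362 and 175 were in members without markers of other cells. Flt1, the VEGF receptor of endothelium, had 159 and 18.5 CPM in HF-PBS (3.10) and 87.9 and 20.6 CPM in HF-HHT (2.09), with 555 of 626 and 71 of 199 UMIs in members without such markers. Tnc, the matrix protein tenascin C, had log2 ratios of 2.78 and 1.78. F13a1, which is also a macrophage marker, had ratios of 1.82 and 1.72. In members without markers of other cells its levels were 19.4 and 20.4 CPM, next to 19.3 and 17.0 CPM in all progenitors. Notch3, Flt1 and F13a1 are themselves in the marker lists by which nuclei were left out. Their values without marked nuclei are thus in part set by that step, which was not applied to the progenitors. Perivascular Rgs5 had 14 and 13 UMIs in the members and 0 and 1 in the progenitors. Abcc9, another perivascular marker, had 64 and 44 UMIs in the members and 0 and 6 in the progenitors. Of its member UMIs, 8 and 24 were in members without markers of other cells. Of the 8 perivascular markers 2 were measured against the progenitors, and 2 were higher in the members in both libraries.

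The genes lowest against the progenitors were Ano3, Efhd1, Sema3e, Limch1, Adra1b, Ackr3, Adamts16, Ston2, Cadm3 and Opcml. Ano3, a membrane protein of the anoctamin family, had 10 UMIs in the HF-PBS members and 100 in the progenitors (-4.99), and 16 and 147 in HF-HHT (-4.22). Sema3e, a guidance ligand, had 62.5 and 969 CPM (-3.95) and 14.6 and 493 CPM (-5.08), and Opcml, an adhesion molecule, -4.57 and -2.86. Of the label genes, C7 and Gpc3 were lower in all members than in the progenitors in both libraries. Those 2 genes thus do not set the members apart. The ratios were -1.84 and -0.34 for C7 and -1.44 and -0.90 for Gpc3. Lama2 had ratios of 0.26 and -0.0045. The rule genes Pdgfra and Fgf10 had 0.81 and -0.30, and 1.49 and 1.44. Of the 4 label genes outside the rule, 0 were at least 1.5-fold higher in the members in both libraries. Col8a1 was higher in HF-PBS members (1.47) but close to equal in HF-HHT (0.11, -0.08 to 0.31). In HF-HHT members without markers of other cells, C7 had 770 CPM, next to 704 CPM in all progenitors. There Col8a1 had 362 CPM next to 277 CPM, and Gpc3 stayed lower, with 304 CPM next to 405 CPM. Lama2 had 1864 CPM there next to 1327 CPM, and Pdgfra 394 CPM next to 367 CPM.

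**Figure D5:**
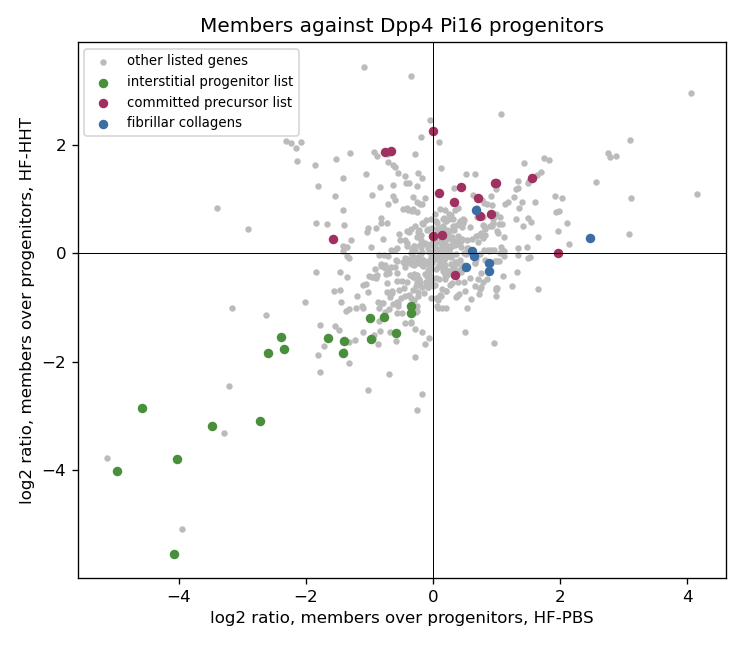
Log2 ratio of members over Dpp4 Pi16 progenitors in HF-PBS (horizontal axis) and HF-HHT (vertical axis), 1 point per listed gene, with interstitial progenitor genes in green, committed precursor genes in purple, fibrillar collagens in blue and other listed genes in grey. With all members counted, the interstitial genes lie to the lower left, 15 of 18 below both limits, and 6 of 17 committed genes lie above them.

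Among themselves the members varied most in a small set of genes. In members without markers of other cells and with at least 1000 UMIs, 472 in HF-PBS against 340 in HF-HHT, the variance of a gene was set against that of counting error alone, over 1533 genes. The median of this ratio was 1.97 in HF-PBS against 1.70 in HF-HHT, and 240 and 161 genes passed 5. The most variable in both libraries were Csmd1 (138 and 42.5), Pcdh9 (47.4 and 31.8), Col8a1 (62.1 and 29.8), C7 (35.2 and 28.5), Malat1 (62.6 and 27.3), Slit3 (48.3 and 21.96), Col3a1 (43.4 and 21.9), Bmper, Thsd7a, Slc8a1, Ebf1 and Gpc6. The label genes Col8a1 and C7 thus did not mark the members evenly.

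Genes that went together from nucleus to nucleus were described by correlation over these nuclei, which share their library and their depth. Fgf10 was most like Bmper, a BMP modulator (r = 0.28 in HF-PBS against 0.25 in HF-HHT), and Ebf2, an early adipocyte factor, was among its closest genes (0.21 and 0.21). C7 was most like Pid1 (0.36 and 0.26), and Col8a1 like Meg3 (0.29 and 0.28) and Col1a2 (0.32 and 0.27). Lama2 was most like the factor Tcf4 (0.30 and 0.31) and Pdgfra like the interleukin receptor Il1r1 (0.17 and 0.27). These values are low, and sparse counts keep them low, so they describe which genes were found in the same nuclei and nothing further. Fgf10, Ebf2 and Pdgfra also enter the stromal sum that chose the nuclei, and the effect of this on their correlations was not tested.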

How the data were processed

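Single nuclei of frozen epididymal WAT were measured in 2 libraries, 1 per condition, with the 10x Genomics 3′ assay after DAPI staining and flow sorting. Per the labels, the authors aligned and counted reads with Cell Ranger 5.0.0 on the mm10 genome, and the deposited values are raw counts (UMIs) per gene for every droplet barcode, with no normalization. The file headers and the methods summary of the study name other Cell Ranger versions. The sources used here do not state whether intron reads were included. Depth was 76197757 UMIs for HF-PBS, close to the 73313558 of HF-HHT.

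Barcodes with at least 500 UMIs, more than 400 genes and mitochondrial UMIs below 0.5% were kept, and the gates given with the results were applied. Mesothelial genes (Msln, Upk3b, Wt1, Muc16 and Bnc1) had to stay below 0.1% and Adgrg2, Pax8 and Pkhd1 below 0.15% of UMIs. No doublet caller was used, and nuclei with markers of adipocytes, macrophages, lymphocytes, endothelium or mural cells were left out as an alternative. Free RNA was the sum of barcodes ranked 45000 to 90000. Counts were summed per class and library with pandas 2.3.3, scipy 1.17.1 and numpy 2.4.6 under Python 3.11.15, and log2 ratios of CPM carry exact conditional 95% intervals. With 1 library per condition there is no test and no p-value. A gene at 0 was set at 3 counts per library. TMM factors came from edgeR 4.0.16 under R 4.3.3. Gene positions are from a GRCm38 annotation, matched by identifier.

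The members and the 33 gene lists and 10 lists of other cells were chosen with earlier results of these data known. Named genes were the 12 highest and 12 lowest ratios. Such genes needed 50 counts in the library where they were higher, 3 counts in the other library and 2 times the CPM of free RNA, and predicted, mitochondrial and hemoglobin genes were left out. The 6 label markers, Col5a2, Col4a1 and Hspa5, the 2 highest and 2 lowest of each list, the 10 highest and lowest against progenitors and the 12 most variable genes were added, and further members of lists were named after their values were seen. Some genes are not reported here. The ratio and its interval were tested on simulated data.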

Additional observations from a re-analysis of the deposited data

Results flagged for a closer look

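Members and Dpp4 Pi16 progenitors differed by at least 1.5-fold in opposite directions for 2 named genes. Kif26b, a kinesin family gene, had 367 UMIs in the HF-PBS and 24 in the HF-HHT members, a log2 ratio of -3.13. In the progenitors it had 0 and 47 UMIs, at least 4.12 higher on the log2 scale with 0 set at 3 counts per library, but the 47 came from 6 nuclei and 55.3% of them from 1 nucleus. Col27a1, a fibrillar collagen, had a log2 ratio of -0.71 in the members and 1.47 in the progenitors. Further listed genes also went in opposite directions. Among them, Cd36 was at 1.37 in the members (0.07 without marked nuclei) and at -1.17 in the progenitors. Sfrp2 was at -1.53 in the members (-1.20 without marked nuclei) and at 1.11 in the progenitors. With 1 library per condition the difference was not tested for any of these genes.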

How the results depend on the processing

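The shares moved with the denominator. They were 75.7% and 66.9% of gated nuclei, 5.62% and 4.54% of quality nuclei without marked nuclei, 8.47% and 6.92% in nuclei thinned before the Dpp4, Pi16 and Sema3c limit, 7.54% in HF-PBS from 2000 UMIs, and 6.497% in HF-HHT without barcodes over the epithelial limit, where the log2 ratio turned to 0.0367. Genes lower in HF-HHT numbered 1878 with TMM and 2015 with median-of-ratios scaling. With no minimum count 4226 were higher and 1899 lower, at 100 counts 1094 and 658, and with a stromal limit of 0.7% 1533 were higher. At 100 counts the members were higher than progenitors in both libraries for 132 genes and lower for 184. Higher complement genes numbered 6 at 100 counts, 3 at the 0.7% limit and 7 with free RNA subtracted, and higher interferon genes 12 at 100 counts. Over all alternatives the median of the fibrillar list ran from -1.41 to -0.80, of the interferon list from 0.88 to 1.43 and of the complement list from 0.24 to 0.95.

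Of 2096 values of 179 named genes under the alternatives, 1680 stayed within counting error, 400 moved and 16 turned direction, in 11 genes. Without marked nuclei Itga6 was at -0.38, Pecam1 at -0.64 and Fgf10 at -0.0622, and without nuclei with adipocyte markers Fgf10 was at -0.14. At the 0.7% limit Eef1a1 was at -0.27. With free RNA subtracted Gpnmb was at 2.61, Mmp12 at 4.56 and Eef1a1 at -0.0298, and with nuclei weighted equally Cenpf was at -0.10. With both marked nuclei left out and free RNA subtracted, Gpnmb was at 6.60, Cidec at -2.09, Pecam1 at -1.22, Fgf10 at -0.17, Rgcc at -1.06, Chrdl1 at -0.21 and Adgrg2 at -0.19. Gpnmb and Mmp12 had 178 and 71.4 CPM in all HF-PBS members, against 1447 and 941 CPM in the free RNA. With 11.7% of member UMIs put down to free RNA, subtraction leaves little or nothing of these genes. Without marked nuclei Gpnmb had 102 CPM in HF-PBS, where the free share was 7.15%. A gene at 0 was set at 3 counts, so these ratios are not measured levels. Pecam1, Cidec, Gpnmb and Mmp12 are themselves in the marker lists by which nuclei were left out. The cause of the turns in genes other than Gpnmb and Mmp12 was not tested. The alternatives that left out adipocyte-marked nuclei only, combined marked nuclei with free RNA, or left marked nuclei out of the comparison with progenitors were chosen after seeing the data. No paired analysis was possible because each condition has 1 library, and no replicate could be left out.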

Other observations

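Genes of dividing cells were measured in the members at low counts. Of 7 measured, 6 were higher in HF-HHT and 0 lower, with a median log2 ratio of 1.84 in all members and 2.17 without marked nuclei. Mki67, which marks cycling cells, had 47 and 100 UMIs, or 11.9 and 44.2 CPM (log2 ratio 1.89, interval 1.38 to 2.42), and Top2a had 20 and 41 UMIs. In HF-HHT 4 members held 60.9% of the UMIs of this list, and in the free RNA the list had 188 and 384 CPM.

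Among axon guidance genes, which also steer vessels and nerves in fat, 9 of 33 were lower and 6 higher in the HF-HHT members. Sema3e had 62.5 and 14.6 CPM (-2.10; -1.91 without marked nuclei) and Unc5c, a netrin receptor, 17.5 and 3.53 CPM (-2.31). Sema4a and Sema3f were at 1.91 and 2.03, but on only 13 and 28 UMIs and 9 and 21 UMIs. Their member levels, 3.29 and 12.4 CPM and 2.28 and 9.28 CPM, lay below their free RNA. That stood at 21.4 and 52.9 CPM and at 7.79 and 20.2 CPM. The mechanically gated channel Piezo2, named after its values were seen, had 515 and 87.5 CPM (-2.56, -2.77 to -2.35; -2.49 without marked nuclei; -1.12 in the progenitors), and a UMI of it was found in 27.5% and 4.79% of members thinned to 2000 UMIs, against 1.25% and 0.75% of macrophage nuclei.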
